A study of Homo sapiens with 12 samples.

Results

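Fibronectin (FN1), SPARC, transgelin (TAGLN), thrombospondin 1 (THBS1), the collagen genes COL1A1, COL13A1, COL4A1 and COL4A2, and the metalloproteinase inhibitors TIMP1 and TIMP2 were compared between oxaliplatin-resistant and parental colorectal carcinoma cells. They were taken by symbol, and all 10 were found among the 54261 genes of the total RNA count table. HCT116oxR is a line that was derived from the human colorectal carcinoma line HCT116 by growth in oxaliplatin, a platinum drug that forms DNA adducts, starting at 0.1 µmol/L and ending at 5 µmol/L, held for 1 year. HCT116 is the parental control. Each line gave 3 total RNA and 3 small RNA libraries. Whether the 3 came from separate cultures, and whether the drug was present at harvest, is not given in the sources used here. The p-values therefore measure the spread between these libraries, which may be technical, and with 1 resistant line they say nothing of how far other resistant lines would differ.

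The extracellular matrix is the protein network outside cells. Collagens give it tensile strength or, in the case of type IV, form the sheet of the basement membrane on which epithelial cells rest, while fibronectin links collagens to integrins at the cell surface. SPARC and thrombospondin 1 are matricellular proteins, which are secreted into the matrix and modify cell adhesion rather than bearing load. TIMPs inhibit the matrix metalloproteinases that cut matrix proteins. Transgelin is not a matrix protein but an intracellular actin-binding protein of smooth muscle, whose gene is often read together with matrix genes in mesenchymal cells.

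The DNA just before the annotated start of the genes with the largest rises is shown first. RefSeq sequences on GRCh38.p14 were matched by symbol for 7 of the 10 genes, and COL1A1, TAGLN and TIMP2 had no entry. The 250 bases before the start are printed from 5′ to 3′ on the strand of the gene, for SPARC (chr5:151686916-151687165, minus strand), FN1 (chr2:215436069-215436318, minus strand) and THBS1 (chr15:39580829-39581078, plus strand). Capitals mark matches on either strand to 6 motifs: the cAMP response element (CRE), TGACGTCA; the AP-1 site, TGANTCA; the CCAAT box; the TATA box, TATAAA; the GC box, GGGCGG; and the CArG box of serum response factor.
SPARC: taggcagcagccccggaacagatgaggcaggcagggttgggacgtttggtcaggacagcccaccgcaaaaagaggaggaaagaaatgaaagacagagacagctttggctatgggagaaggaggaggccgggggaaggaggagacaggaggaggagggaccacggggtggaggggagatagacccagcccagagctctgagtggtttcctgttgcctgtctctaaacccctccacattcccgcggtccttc
FN1: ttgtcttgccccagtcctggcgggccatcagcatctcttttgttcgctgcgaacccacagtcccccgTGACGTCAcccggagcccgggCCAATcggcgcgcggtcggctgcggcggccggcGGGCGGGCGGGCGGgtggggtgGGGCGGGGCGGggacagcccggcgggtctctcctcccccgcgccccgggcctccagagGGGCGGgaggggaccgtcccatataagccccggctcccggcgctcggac
THBS1: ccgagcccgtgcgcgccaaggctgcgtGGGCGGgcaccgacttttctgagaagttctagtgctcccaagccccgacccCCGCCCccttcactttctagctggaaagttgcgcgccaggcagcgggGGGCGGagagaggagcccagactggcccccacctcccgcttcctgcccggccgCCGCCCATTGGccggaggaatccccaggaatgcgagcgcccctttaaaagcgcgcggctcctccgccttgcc
The SPARC window held none of these motifs. The FN1 window held 1 CRE, 1 CCAAT box and 6 GC boxes, some of them overlapping, and the THBS1 window 1 CCAAT box and 4 GC boxes. Among 35116 promoter windows of the same length, 1.65% held a CRE, 6.57% an AP-1 site, 32.0% a CCAAT box, 10.7% a TATA box, 42.6% a GC box and 1.16% a CArG box. The G and C content was 59.2% for SPARC, 76.4% for FN1 and 69.6% for THBS1, with a median of 58.0% over all windows. These matches describe the letters and do not show that a factor binds.

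Each total RNA library held 11950069 to 13558077 counts, and each small RNA library 16089595 to 18147051. Levels are given as CPM, counts scaled to a common library total after adjustment with TMM factors. They are not divided by transcript length, so levels of different genes are not compared with each other. Counts were tested with edgeR's quasi-likelihood test over all genes, with Benjamini-Hochberg adjustment and a threshold of 0.05. Of 17511 genes tested, 44.1% passed, 22.3% higher and 21.8% lower in HCT116oxR, and the median log2 fold change was -0.00. Epithelial genes were abundant, with summed levels of 10 markers of 3790 to 3860 CPM in HCT116oxR and 3160 to 3260 CPM in HCT116, although VIL1 and CDX1, which mark differentiated intestinal epithelium, had at most 2 counts over the libraries of a line. The 10 fibroblast markers summed to 5.0 to 7.0 CPM in HCT116oxR and 4.82 to 12.2 CPM in HCT116, most of it COL1A2. COL3A1, with 5 counts over HCT116oxR and 2 over HCT116 libraries, and PTPRC, the pan-leukocyte gene, with 0 in all libraries, were near or at 0. The 8 endothelial markers summed to 31.4 to 35.2 CPM in HCT116oxR and 27.8 to 29.6 CPM in HCT116, most of it EGFL7, while CDH5 had 1 count over the libraries of each line. The 8 leukocyte markers summed to 6.99 to 8.63 CPM in HCT116oxR and 13.4 to 16.1 CPM in HCT116, most of it CD68.

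SPARC, FN1, TAGLN, THBS1, COL13A1 and TIMP2 rose in HCT116oxR, COL1A1 fell, and TIMP1 did not pass the test. COL4A1 and COL4A2 were too low to be tested. Thus 8 of the 10 genes passed the filter on low counts, and 6 were called higher and 1 lower, where 22.3% and 21.8% of all tested genes were. SPARC, FN1, TAGLN and THBS1 were called higher by at least 2-fold, 4 of the 8 genes, where 4.88% of all tested genes were. The libraries of the lines did not overlap for 7 of the 8, where this held for 50.5% of all tested genes. The genes were chosen with earlier results of these data known, so these counts describe them and are no evidence that matrix genes as a class rose.

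**Figure D1:**
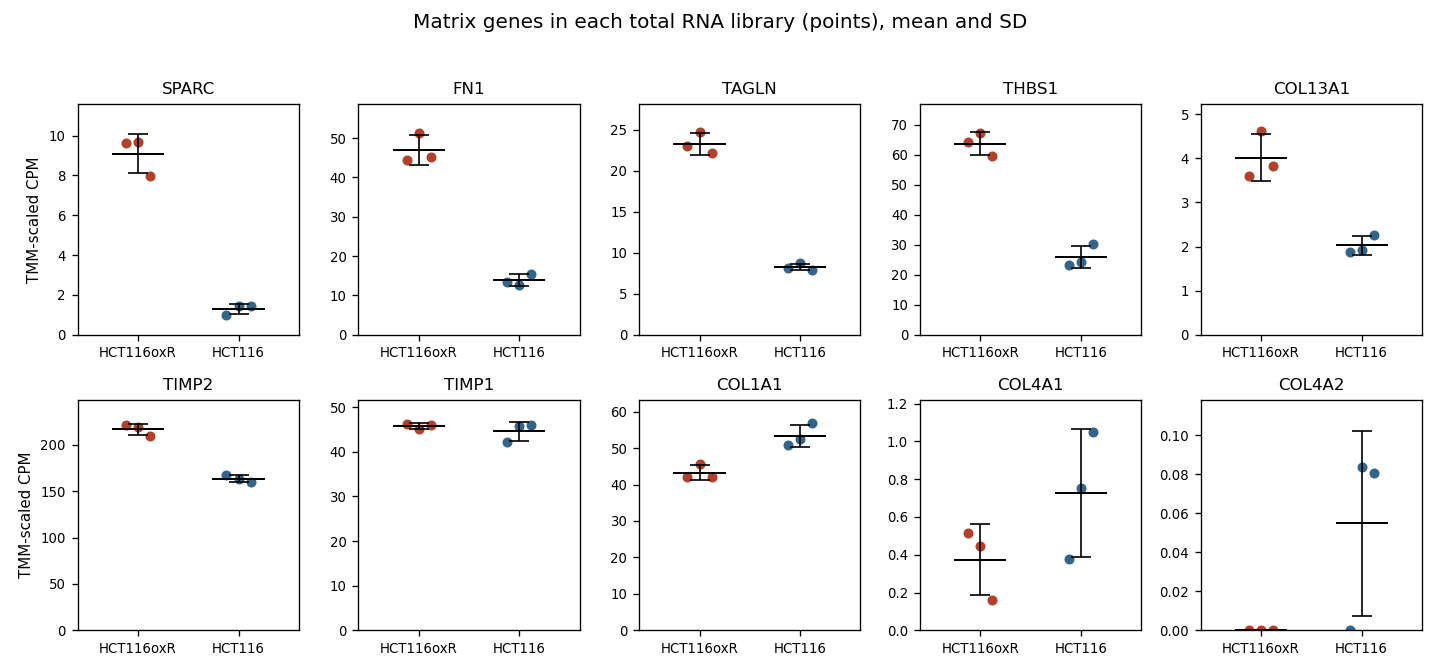
TMM-scaled CPM (vertical axes, each from 0) of the 10 matrix genes in every total RNA library of HCT116oxR (red) and HCT116 (blue). Points are libraries and black bars the mean and SD over 3. The lines are apart for SPARC, FN1, TAGLN, THBS1, COL13A1, TIMP2 and COL1A1 and overlap for TIMP1, COL4A1 and COL4A2.

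Fibronectin is a large secreted glycoprotein that cells assemble into fibres. FN1 had 44.5, 51.4 and 45.2 CPM in the HCT116oxR libraries and 13.5, 12.6 and 15.5 CPM in the HCT116 libraries. Every HCT116oxR library lay above every HCT116 library, and the highest value came from HCT116oxR replicate 2. The rise was 3.39-fold, a log2 fold change of 1.76 ± 0.10 (SE, n = 3 per line, edgeR adjusted p = 4.12e-34), and 1.91% of all tested genes had a higher one. Over the 11 alternatives of processing it stayed between 1.69 and 1.85. The 3 genes whose log2 CPM was most correlated with that of FN1 over the 6 libraries, among 12722 compared, were PIGAP1 (Pearson's r = 0.9994), KRT8 (0.9992) and AGO4 (0.9991). These correlations mostly restate the gap between the lines.

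SPARC binds collagen and calcium and is secreted where tissue is remodelled. Its levels were 9.64, 9.68 and 7.97 CPM in HCT116oxR and 0.979, 1.43 and 1.45 CPM in HCT116. It had 131, 130 and 98 counts in HCT116oxR libraries and 13, 17 and 18 counts in HCT116 libraries, so that its parental level rested on few reads. The lines did not overlap. SPARC had the largest fold change of the 8 tested genes, 7.07-fold, with a log2 fold change of 2.82 ± 0.25 (SE, edgeR adjusted p = 1.14e-19), a rank of 116 among the 17511 genes tested.

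Thrombospondin 1 binds CD47 and CD36 at the cell surface and can activate latent TGF-beta. THBS1 stood at 64.2, 67.3 and 59.6 CPM in HCT116oxR and 23.3, 24.3 and 30.1 CPM in HCT116. All 3 HCT116oxR libraries lay well above the highest HCT116 library, replicate 3. The difference was 2.46-fold (log2 fold change 1.30 ± 0.08, SE, edgeR adjusted p = 6.39e-30).

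Transgelin cross-links actin filaments. TAGLN was measured at 22.96, 24.7 and 22.1 CPM in HCT116oxR and 8.13, 8.73 and 7.91 CPM in HCT116, with little spread within a line. It rose 2.82-fold (log2 fold change 1.495 ± 0.13, SE, edgeR adjusted p = 9.01e-20). Its paralog TAGLN2, the abundant epithelial form, named after its values were seen, averaged 106 CPM in HCT116oxR and 111 CPM in HCT116 and did not pass (log2 fold change -0.06 ± 0.05).

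COL1A1 encodes the alpha 1 chain of type I collagen, the main fibrillar collagen of connective tissue. It had 42.0, 45.6 and 42.1 CPM in HCT116oxR and 50.9, 52.4 and 56.8 CPM in HCT116. All HCT116oxR values were below all HCT116 values, by a modest margin. The fold change was 1.23-fold in the downward direction (log2 fold change -0.30 ± 0.07, SE, edgeR adjusted p = 2.68e-04). Its partner chain gene COL1A2, named for that and not for its value, which supplies the alpha 2 chain of the same trimer, had 3.16, 4.47 and 4.63 CPM in HCT116oxR and 3.61, 3.78 and 10.4 CPM in HCT116. The lines overlapped, and the high value of HCT116 replicate 3 set the fitted difference of -0.54 ± 0.40 (adjusted p = 0.325), which was 0.14 without that library.

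COL13A1 encodes a transmembrane collagen found at cell junctions and at the neuromuscular synapse. Its levels were low, 3.61, 4.61 and 3.82 CPM in HCT116oxR and 1.88, 1.93 and 2.26 CPM in HCT116. The libraries did not overlap between lines. The log2 fold change of 0.99 ± 0.28 (SE, edgeR adjusted p = 0.00236) had the largest SE of the 8 tested genes.

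COL4A1 and COL4A2 encode the chains of the ubiquitous type IV collagen of basement membranes. COL4A1 had 7, 6 and 2 counts in the HCT116oxR libraries and 5, 9 and 13 counts in the HCT116 libraries, which overlapped. The ratio of CPM was 0.531, with an exact 95% binomial interval of 0.263 to 1.03, which covers counting error only. COL4A2 had 0 counts in every HCT116oxR library and 0, 1 and 1 counts in the HCT116 libraries, at or under the floor of 3 counts a library, and no fold is given. A difference in this pair was not detectable at this depth.

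TIMP2 inhibits metalloproteinases and takes part in the activation of MMP2 at the cell surface. It stood at 222, 219 and 210.0 CPM in HCT116oxR and 168, 163 and 160 CPM in HCT116. The lines did not overlap, and the difference was 1.33-fold (log2 fold change 0.41 ± 0.04, SE, edgeR adjusted p = 3.66e-16). TIMP1, a secreted inhibitor that also promotes growth of some cells, had 46.1, 45.0 and 46.1 CPM in HCT116oxR and 42.2, 45.7 and 45.9 CPM in HCT116. Its libraries overlapped, with a log2 fold change of 0.04 ± 0.08 (adjusted p = 0.728), which was -0.005 without HCT116 replicate 1. Within a library, the log2 ratio of TIMP1 to TIMP2 counts was -2.24 ± 0.05 in HCT116oxR and -1.87 ± 0.10 in HCT116 (SD, n = 3 each). Every HCT116oxR library had a lower ratio than every HCT116 library, and the difference of -0.37 gave p = 0.1 in a 2-sided exact permutation test, the smallest value that 3 against 3 libraries allow.

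**Figure D2:**
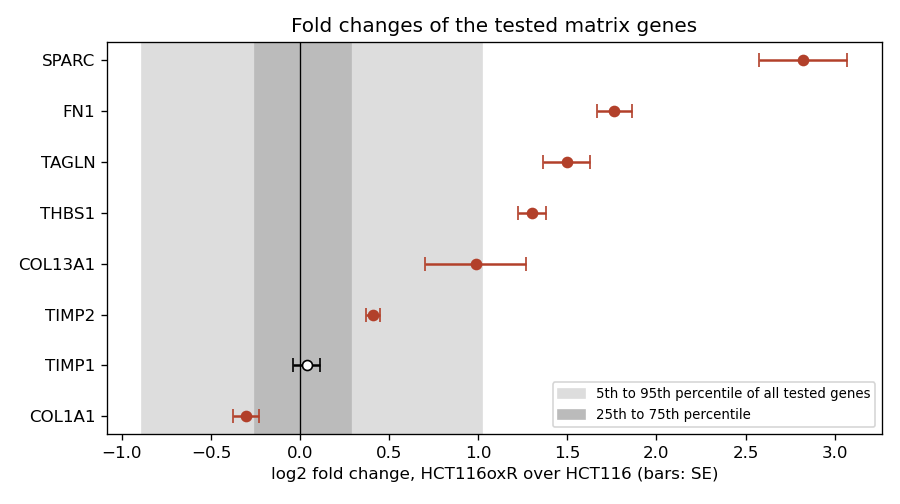
Log2 fold change of HCT116oxR over HCT116 (horizontal axis) of the 8 tested genes, with SE bars. Filled points passed the threshold, the open point (TIMP1) did not, and the grey bands give the spread of all 17511 tested genes. SPARC, FN1, TAGLN and THBS1 lie beyond the band's upper end of 1.02, and COL13A1 at 0.99 lies just inside it.

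The sizes of the rises differed among the genes. The log2 fold change of SPARC exceeded that of FN1 by 1.06 with a combined SE of 0.27. The next genes in the order, FN1, TAGLN, THBS1 and COL13A1, each lay within 2 combined SEs of the next, so neighbours in this order were not told apart. TIMP2 lay below COL13A1 by 0.58 with a combined SE of 0.29, barely more than 2 SEs, and above TIMP1 by 0.37 with a combined SE of 0.09. The spread between libraries of a line, as a coefficient of variation, was 8.02% in HCT116oxR and 10.8% in HCT116 for FN1. For TAGLN it was 5.71% in HCT116oxR and 5.09% in HCT116, and for TIMP2 2.82% in HCT116oxR and 2.43% in HCT116. SPARC had the widest of these, 10.7% in HCT116oxR and 20.7% in HCT116. In bulk libraries such as these, a change in the share of cells that express a gene and a change in RNA per cell cannot be told apart.

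The genes lie on 8 chromosomes (GRCh38.p14), FN1 at chr2:215360865-215436068, SPARC at chr5:151661096-151686915, TAGLN at chr11:117199294-117207465, THBS1 at chr15:39581079-39599466, COL1A1 at chr17:50184101-50201631 and TIMP2 at chr17:78852977-78925387. COL13A1 lies at chr10:69801906-69959144, TIMP1 at chrX:47582436-47586789, COL4A1 at chr13:110148963-110307157 and COL4A2 at chr13:110307284-110513209. Among the 5 tested genes nearest on each side of SPARC, 1 was higher and 2 were lower, with a median log2 fold change of -0.09 and a range from -0.61 for TNIP1 to 0.88 for ANXA6. Around TAGLN 1 was higher and 1 lower (median -0.07), the higher one being FXYD6 at 4.01, an ion pump regulator. Around FN1 4 were higher and 2 lower (median 0.24, none above 0.77 for TMEM169). Around THBS1 4 were higher and 0 lower (median 0.26, highest MEIS2 at 1.55), and around TIMP2 also 4 and 0 (median 0.19, highest CBX2 at 1.21). Around COL1A1 3 were higher and 2 lower (median 0.14), around COL13A1 3 and 3 (median -0.04), and around TIMP1 2 and 1 (median 0.07). Over all tested genes, 22.3% were higher and 21.8% lower. For SPARC, FN1 and COL13A1 the fold change was above that of each of the 10 neighbours, for TAGLN, THBS1 and TIMP2 it was not.

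Some of the genes overlap others in the annotation, and the use of strand in counting is not given in the sources used here, so reads of overlapping parts cannot be told apart. FN1 overlaps the end of ATIC, which stood at -0.01 ± 0.04 (log2 fold change). TAGLN overlaps PCSK7, which fell by 0.21 ± 0.08 (adjusted p = 0.0236), and LOC100652768, at -0.15 ± 0.24. TIMP2 contains CEP295NL, at 0.31 ± 0.19 with 75 to 109 counts in HCT116oxR libraries and 66 to 80 in HCT116 libraries. TIMP1 lies within the span of the synapsin gene SYN1, which had at most 7 counts in any library, and THBS1 overlaps the end of FSIP1, which had at most 20.

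The collagen family as a whole went both ways. Of 44 listed collagen genes, 22 passed the filter on low counts, and 8 of these were higher, 7 lower and 7 not called in HCT116oxR, with a median log2 fold change of 0.06. The share called was 68.2%, where 44.1% of all tested genes were called. In all, 6 of the 44 had no count in any library. COL4A3 and COL4A4, which encode chains of the specialised basement membrane of kidney and lung, rose together (COL4A4 is named as the partner of COL4A3). COL4A3 had 51.1, 50.9 and 54.0 CPM in HCT116oxR and 16.1, 20.1 and 20.8 CPM in HCT116 (log2 fold change 1.45 ± 0.09), and COL4A4 had 72.8, 64.4 and 62.6 CPM in HCT116oxR and 41.0, 41.0 and 45.1 CPM in HCT116 (0.65 ± 0.07). COL4A5 and COL4A6, which encode other chains of type IV collagen, fell together. COL4A5 had 72.9, 66.5 and 68.5 CPM in HCT116oxR and 183, 194 and 188 CPM in HCT116 (-1.44 ± 0.05), and COL4A6 had 2.50, 3.35 and 3.90 CPM in HCT116oxR and 18.9, 21.6 and 20.9 CPM in HCT116 (-2.66 ± 0.16). No library of one line overlapped the other for any of these 4 genes.

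The type IV collagen genes lie head to head in pairs, each pair starting in opposite directions from a short stretch of shared DNA, and the 3 pairs differed in these cells. One was nearly silent in both lines, one rose and one fell. The stretches are shown on the plus strand, with capitals marking the same motifs as above. Between the annotated spans of COL4A1 and COL4A2 lie 126 bases (chr13:110307158-110307283), and between COL4A4 and COL4A3 lie 135 (chr2:227164489-227164623). COL4A6 and COL4A5 are 379 bases apart, of which the 250 next to COL4A5 are given (chrX:108439588-108439837).
COL4A1-COL4A2: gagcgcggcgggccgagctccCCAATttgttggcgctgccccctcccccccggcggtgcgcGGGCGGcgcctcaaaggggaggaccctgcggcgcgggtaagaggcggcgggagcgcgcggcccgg
COL4A4-COL4A3: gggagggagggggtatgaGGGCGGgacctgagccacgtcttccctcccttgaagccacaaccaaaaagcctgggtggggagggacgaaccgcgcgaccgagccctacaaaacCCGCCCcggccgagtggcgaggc
COL4A6-COL4A5: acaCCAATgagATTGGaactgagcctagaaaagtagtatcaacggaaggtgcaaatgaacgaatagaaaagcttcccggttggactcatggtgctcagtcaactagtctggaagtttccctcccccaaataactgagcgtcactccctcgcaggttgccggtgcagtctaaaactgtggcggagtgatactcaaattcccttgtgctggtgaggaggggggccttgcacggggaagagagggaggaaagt
The COL4A1-COL4A2 stretch held 1 CCAAT box and 1 GC box, the COL4A4-COL4A3 stretch 2 GC boxes, and the printed part beside COL4A5 2 CCAAT boxes. Over the 250 bases before each start, the G and C content was 78.8% for COL4A2, 66.4% for COL4A3 and 51.2% for COL4A5.

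Outside type IV, COL17A1, the transmembrane collagen of hemidesmosomes that anchor epithelial cells to the basement membrane, had the largest fall. It had 0.736, 0.298 and 0.406 CPM in HCT116oxR and 9.26, 9.31 and 10.98 CPM in HCT116, 20.02-fold lower (log2 fold change -4.32 ± 0.29, adjusted p = 3.56e-27). COL13A1, the other transmembrane collagen tested, was higher. Among fibrillar collagens 0 of 5 tested rose and 2 fell, COL1A1 and COL5A2, which regulates fibril width (-2.28 ± 0.15). At 40.0% called, the fibrillar collagens were near the 44.1% of all tested genes. COL9A3 (1.70 ± 0.14) and COL9A2 (0.83 ± 0.19), chains of the cartilage collagen IX, rose, as did COL18A1 (1.15 ± 0.25), a basement membrane collagen. COL7A1, the anchoring fibril collagen, fell by 0.62 ± 0.12. COL20A1 was lower too (-0.99 ± 0.40), but its call was lost without HCT116oxR replicate 1 or 3, without each HCT116 library, and in DESeq2 (adjusted p between 0.0666 and 0.156).

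**Figure D3:**
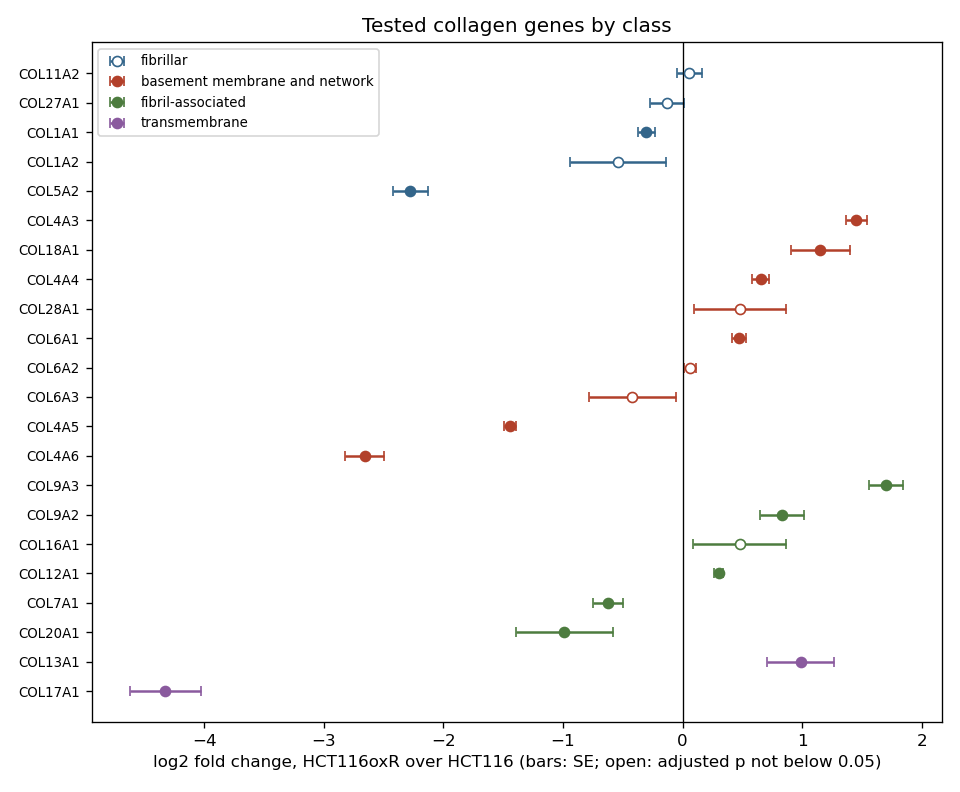
Log2 fold change of HCT116oxR over HCT116 (horizontal axis, SE bars) of the 22 tested collagen genes, grouped and coloured by class. Filled points passed the threshold and open ones did not. COL4A3 and COL4A4 lie to the right of 0, COL4A5 and COL4A6 to the left, and COL17A1 lies furthest left at -4.32.

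Beyond the collagens, the enzymes that modify and process them were read next. Of 25 tested, 15 were higher, 3 lower and 7 not called, where 22.3% of all tested genes were higher and 21.8% lower. Their median log2 fold change was 0.28, where the median of all tested genes was -0.00. ADAMTS2 (1.89 ± 0.21) and ADAMTS14 (1.41 ± 0.06), which remove the amino-terminal propeptide of procollagens, PCOLCE (1.09 ± 0.24), which enhances removal of the other propeptide, and the lysyl oxidase-like gene LOXL4 (1.88 ± 0.20), which cross-links collagen, rose. P4HB, the beta subunit of prolyl hydroxylase, named after its values were seen, rose by 0.13 ± 0.03.

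Other matricellular genes were split, with 3 of 10 tested higher, 3 lower and 4 not called. This was 60.0% called, beside 44.1% of all tested genes. SPOCK1, a SPARC-related proteoglycan, had 47, 82 and 44 counts in HCT116oxR and 4, 1 and 1 in HCT116 (log2 fold change 4.70 ± 0.48, and 5.575 without HCT116 replicate 1). NOV (CCN3) had 68.4, 71.7 and 70.7 CPM in HCT116oxR and 7.23, 6.04 and 6.94 CPM in HCT116 (3.38 ± 0.10), while its relative CTGF (CCN2), which is known as a TGF-beta and YAP target, had 10.3, 10.4 and 12.03 CPM in HCT116oxR and 47.05, 42.5 and 48.3 CPM in HCT116 (-2.08 ± 0.10). The CCN family thus did not move one way. SPP1, the osteopontin gene, was lower (-1.30 ± 0.44), a call lost without HCT116oxR replicate 2 (adjusted p = 0.0699) or HCT116 replicate 1 (adjusted p = 0.0711).

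Genes of fibronectin and elastic fibres other than FN1 showed 5 higher, 2 lower and 6 not called of 13 tested. The share called was 53.8%, where 44.1% of all tested genes were called. FBLN1, a fibulin that binds fibronectin, rose by 0.58 ± 0.11, while LTBP2 fell by 1.15 ± 0.11 and the fibrillin gene FBN2 fell by 1.98 ± 0.49. FBLN5 was higher (0.72 ± 0.25), with adjusted p = 0.0533 without HCT116oxR replicate 1 and 0.0515 without HCT116oxR replicate 2. Of 10 proteoglycan genes tested 4 rose and 2 fell, which is 60.0% called beside the same 44.1%. VCAN, which encodes versican, a large proteoglycan of provisional matrix, had 34.7, 35.95 and 35.8 CPM in HCT116oxR and 264, 256 and 251 CPM in HCT116 (-2.86 ± 0.05). SDC4, a syndecan that acts with integrins as a fibronectin receptor, fell by 0.92 ± 0.04, and GPC2 (0.75 ± 0.13) and the perlecan gene HSPG2 (0.69 ± 0.04) rose.

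The metalloproteinases and their inhibitors did not move alike. Among metalloproteinase genes 3 of 11 tested rose and 5 fell, where 22.3% of all tested genes were higher and 21.8% lower. The collagenase gene MMP1 fell by 3.30 ± 0.47 and MMP19 by 1.91 ± 0.52, while MMP25 (2.02 ± 0.41) and MMP11 (1.73 ± 0.20) rose. MMP19 missed the threshold without HCT116 replicate 1 (adjusted p = 0.0505). Of the inhibitors other than TIMP1 and TIMP2, TIMP3 and A2M rose and RECK did not pass (0.25 ± 0.13). TIMP3, which stays bound to the matrix, had 130, 102 and 89 counts in HCT116oxR and 0, 3 and 5 in HCT116. A2M, a broad plasma proteinase inhibitor, had 87, 61 and 49 counts in HCT116oxR and 0, 0 and 1 in HCT116, so that its CPM ratio was 188, with exact 95% binomial bounds at 33.4 and 7470. The single HCT116 count came from replicate 3, without which HCT116 stood at 0.

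Actin-binding and contractile genes other than TAGLN were split, with 5 of 17 higher, 7 lower and 5 not called. The background over all tested genes was 22.3% higher and 21.8% lower. MYLK, the myosin light chain kinase gene, rose by 1.66 ± 0.21 and the calponin gene CNN3 by 0.96 ± 0.05, while the focal adhesion genes VCL (-0.94 ± 0.05) and PDLIM7 (-0.84 ± 0.05) fell. Genes known from smooth muscle, named after their values were seen, were split as well. MYL9 rose (0.705 ± 0.092), SMTN fell (-0.326 ± 0.045) and ACTA2 was not called (0.47 ± 0.23, edgeR adjusted p = 0.0894). CNN1, MYH11, ACTG2 and LMOD1 were too low to be tested. CNN1 had 0 counts over the HCT116oxR libraries and 1 over the HCT116 libraries. In the same order, MYH11 had 12 and 5, ACTG2 7 and 1, and LMOD1 11 and 0.

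TGF-beta is a growth factor known to raise FN1 and COL1A1 in many cells. Among its ligands, receptors and SMADs 5 of 18 tested rose and 6 fell, where 22.3% of all tested genes were higher and 21.8% lower. The ligand gene TGFB2 rose by 1.27 ± 0.24, TGFB1I1, a focal adhesion adaptor, by 0.89 ± 0.20 and the inhibitory SMAD6 by 1.38 ± 0.09, while the signal transducer SMAD3 had 283 ± 8.01 CPM in HCT116oxR and 504 ± 6.14 CPM in HCT116 (SD, n = 3 each; log2 fold change -0.83 ± 0.03). Of 13 response genes tested 4 rose and 7 fell, with a median of -0.29. That is 84.6% called, beside 44.1% of all tested genes. The BMP- and TGF-beta-regulated ID2 (3.77 ± 0.12) and ID3 (1.41 ± 0.08) rose, and CTGF and SNAI2 (-3.00 ± 0.50) fell. FN1 and THBS1 were higher and CTGF and COL1A1 lower in HCT116oxR. Whether TGF-beta signalling bears on any of these genes was not tested.

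Among receptors for collagen and thrombospondin 2 of 7 tested rose and 3 fell, which is 71.4% called beside 44.1% of all tested genes. The collagen endocytosis receptor gene MRC2 rose by 1.96 ± 0.14. CD47, the receptor of thrombospondin 1, had 85.9 ± 2.25 CPM in HCT116oxR and 151 ± 7.62 CPM in HCT116 (-0.82 ± 0.05), opposite to its ligand's gene. The collagen receptor genes GP6 (-2.28 ± 0.56) and DDR2 (-0.64 ± 0.26) fell, DDR2 with adjusted p up to 0.107 when single libraries were left out and 0.0641 in DESeq2. Of 8 epithelial markers tested, 4 were higher and 1 lower, where 22.3% of all tested genes were higher and 21.8% lower. KRT18 (log2 fold change 0.53 ± 0.03), CDX2 (0.51 ± 0.13), KRT8 (0.42 ± 0.03) and EPCAM (0.25 ± 0.04) were higher, although the lines overlapped for CDX2. KRT19 was lower (-0.127 ± 0.028). KRT20 (-0.388 ± 0.37), CDH1 (0.082 ± 0.062) and CLDN7 (0.094 ± 0.055) did not pass.

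**Figure D4:**
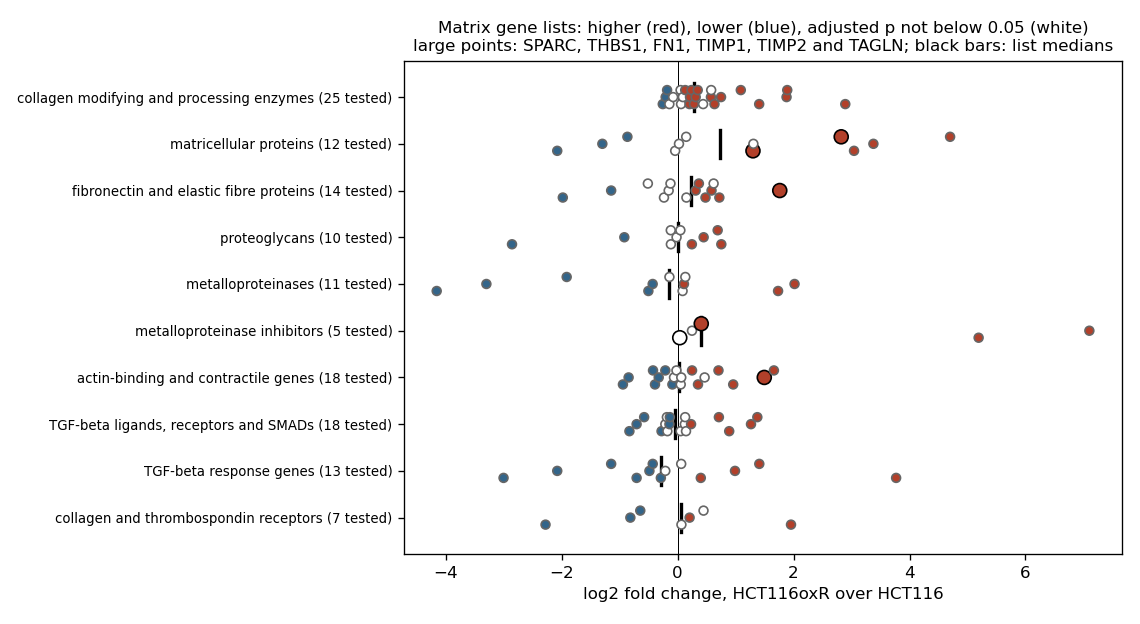
Log2 fold change of HCT116oxR over HCT116 (horizontal axis) of every tested gene in 10 lists of matrix-related genes, 1 row a list. Red points are higher, blue lower and white not past the threshold, black bars are list medians, and large points are SPARC, THBS1, FN1, TIMP1, TIMP2 and TAGLN. The median as drawn lies furthest right for matricellular proteins and furthest left for TGF-beta response genes (-0.29). The matricellular median is 0.72 with SPARC and THBS1, which were chosen with results known, and 0.09 without them.

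Of the 228 listed matrix genes other than the 10, 143 were tested, 55 of them higher and 41 lower, which is 67.1% called beside 44.1% of all tested genes, with a median log2 fold change of 0.09. The lists were chosen with results known, and the share is given as a description.

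In small RNA from the same lines, the miR-29 and miR-200 families were read. The miR-29 family is known to act on collagen and SPARC mRNAs. The miR-200 family is known to hold epithelial cells in their state and to act on FN1 mRNA. The mature RefSeq sequences of both families follow, with the seed, bases 2 to 8, in capitals, since the seed sets which mRNAs can pair.
miR-29a-3p: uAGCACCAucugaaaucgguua
miR-29b-3p: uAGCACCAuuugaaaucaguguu
miR-29c-3p: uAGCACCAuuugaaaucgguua
miR-200b-3p: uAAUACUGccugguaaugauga
miR-200c-3p: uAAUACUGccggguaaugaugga
miR-429: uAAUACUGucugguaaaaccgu
miR-200a-3p: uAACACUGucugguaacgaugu
miR-141-3p: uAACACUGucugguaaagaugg
The miR-29 members share 1 seed, miR-200b, miR-200c and miR-429 share another, and miR-200a and miR-141 share the remaining one.

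In the miR-29 family 1 of 3 members rose and 2 did not pass, where 23.5% of tested miRNAs were called higher. miR-29a-3p had 7647, 7557 and 7973 CPM in HCT116oxR and 6225, 6354 and 6224 CPM in HCT116 (log2 fold change 0.30 ± 0.04, SE, edgeR adjusted p = 1.20e-04 over 975 miRNAs). miR-29b-3p, at 245, 305 and 393 CPM in HCT116oxR and 254, 264 and 278 CPM in HCT116, overlapped between lines and did not pass (0.24 ± 0.15, adjusted p = 0.222). It was called higher without HCT116oxR replicate 1 (0.42, adjusted p = 0.0032). miR-29c-3p was scarce, at 21.0, 17.3 and 23.1 CPM in HCT116oxR and 29.5, 24.7 and 23.4 CPM in HCT116 (-0.34 ± 0.13, adjusted p = 0.0565), with lines that just failed to overlap, and was called lower without HCT116oxR replicate 3 (adjusted p = 0.0258).

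In the miR-200 family 4 of 5 members rose and 1 fell, where 44.7% of tested miRNAs were called, 23.5% higher and 21.2% lower. miR-429 had 2824, 2960 and 3235 CPM in HCT116oxR and 1534, 1551 and 1587 CPM in HCT116 (0.95 ± 0.06), the largest difference of the family. miR-200a-3p (0.46 ± 0.05) and miR-200b-3p (0.44 ± 0.05), which are encoded beside miR-429 on chromosome 1, also rose. miR-200c-3p on chromosome 12 was higher by 0.18 ± 0.05, and miR-141-3p from the same site fell by 0.25 ± 0.06. All 5 had lines that did not overlap, as had 55.2% of tested miRNAs. In HCT116oxR, FN1 and SPARC mRNA were higher and COL1A1 mRNA was lower. In the same line miR-29a-3p, miR-200a-3p, miR-200b-3p, miR-200c-3p and miR-429 were higher and miR-141-3p was lower, while miR-29b-3p and miR-29c-3p did not pass. The small RNA libraries are other libraries than those of total RNA, and no relation between miRNA and mRNA was tested.

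**Figure D5:**
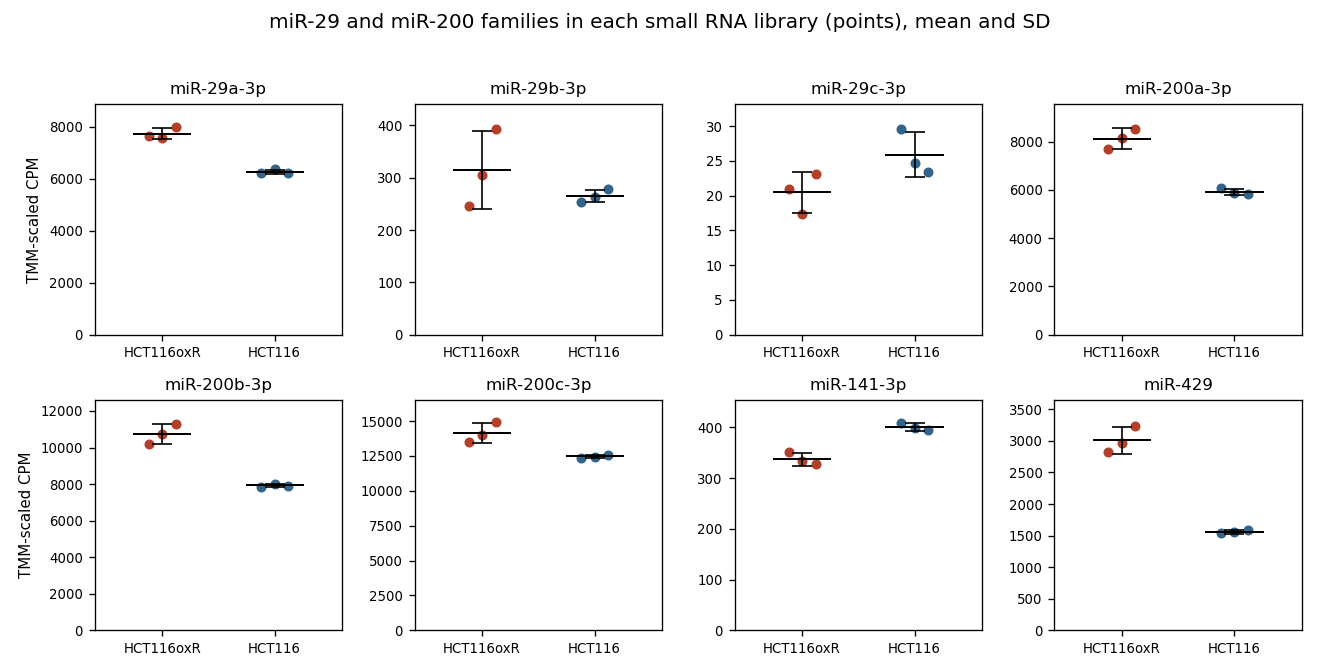
TMM-scaled CPM (vertical axes, each from 0) of the miR-29 and miR-200 family members in every small RNA library of HCT116oxR (red) and HCT116 (blue). Points are libraries and black bars the mean and SD over 3. The lines are apart for miR-29a-3p and the 5 miR-200 members, with miR-429 at 1.93-fold, and overlap for miR-29b-3p.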

How the data were processed

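Total RNA and small RNA of HCT116oxR and HCT116 cells were measured in 12 libraries, 3 per line and kind. The authors deposited raw counts, in 1 table of 54261 genes and 1 of 2588 mature miRNAs. Per the submitters' processing notes, HISAT2 was used for total RNA, BWA for small RNA and GRCh38 as the build. The sources used here do not give tool versions, the counting tool, the annotation or the use of strand. The labels' protocols ask for an RNA integrity number above 8.0.

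edgeR 4.0.16 in R 4.3.3 was run on each table by itself. The filter filterByExpr (minimum count 10, minimum total 15) left 17511 genes and 975 miRNAs. Libraries were scaled with TMM factors, and the lines were compared with the robust quasi-likelihood F test, 2-sided, without a replicate term, with Benjamini-Hochberg adjustment over all features. Each SE was approximated by dividing the size of the log2 fold change by the root of its F statistic, and may understate the error of genes with few counts. In total RNA, 3 counts correspond to 0.221 to 0.252 CPM. PCR duplicates cannot be removed from counts, and intervals cover counting error only. Replicate libraries differed by more than sampling noise (chi-square per degree of freedom 2.21 or more), and each was kept as 1 replicate. The fit was tested on simulated data. These held fewer changed features than were called here and the same spread setting for all features of a table. They therefore do not show the error rate in the deposited data.

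The genes described and the lists were chosen with earlier results of these data known. All 10 genes were named. From each list up to 4 further called genes were named, those with the largest absolute log2 fold change among genes whose average log2 CPM was 0 or more. Both miRNA families were named, as were the 3 genes most correlated with FN1 (average log2 CPM 2 or more). Others are marked in the text as named after their values were seen or as partner or marker genes. Neighbours, overlaps and sequences came from RefSeq tables for GRCh38.p14. Alternatives were other size factors, library totals, no filter, DESeq2 1.42.0, a replicate block and leaving out each library. Lists were described by counts and medians, with no set test.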

Additional observations from a re-analysis of the deposited data

How the results depend on the processing

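The counts of called genes were 6 higher and 1 lower among the 10 matrix genes under all alternatives tried, and 53 to 57 higher and 36 to 41 lower among the other listed matrix genes. Over all genes, 3415 to 4011 were higher and 3365 to 3835 lower, and over all miRNAs 201 to 243 were higher and 157 to 215 lower, each within 1.5 times the value reported. DESeq2 called the fewest genes. With replicate number as a block, 3828 genes were higher and 3737 lower, 6 and 1 of the 10, 55 and 41 of the other listed genes, and 213 and 192 miRNAs. Same-numbered libraries did not deviate together more than differently numbered ones. In total RNA, r was between -0.0333 and 0.0166 for the same number and between -0.0393 and 0.0679 for different numbers. In small RNA it was between -0.181 and 0.162 for the same number and between -0.24 and 0.274 for different numbers. Pairing by number was thus not seen, but so few libraries cannot exclude it. Among single genes, the direction turned for TIMP1 without HCT116 replicate 1 (-0.005, the other libraries left out giving up to 0.058), for COL1A2 without HCT116 replicate 3 (0.14, the lowest being -0.81 without HCT116 replicate 1) and for COL11A2 without HCT116 replicate 3 (-0.031, the highest being 0.16), of which none had passed the threshold. The cause was not tested. COL1A2 passed as lower without HCT116 replicate 1 (adjusted p = 0.00805) and COL28A1 as higher without HCT116 replicate 3 (1.14). The call of ITGAM was lost without HCT116 replicate 2 (adjusted p = 0.0906) and that of DDR2 and COL20A1 without the low-count filter (adjusted p = 0.0654 and 0.063). miR-29b-3p passed as higher without the filter (adjusted p = 0.0216). The within-library difference of COL4A1 and COL4A2 between the lines was 0.21 (exact permutation p = 0.7), -0.28 with a pseudocount of 2 counts in place of 0.5, and -0.086 to 0.71 when single libraries were left out. It rests on 0 to 13 counts a library. For TIMP1 and TIMP2 it was -0.43 to -0.33 when single libraries were left out, where 3 against 2 libraries cannot give an exact p below 0.2. Depth limits COL4A1, COL4A2 and other genes of few counts.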

Other observations

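Several listed genes fell short of the low-count filter and had no test, although their lines did not overlap in CPM. Of 15 such genes, some of them from the cell type marker lists, 11 were higher and 4 lower in HCT116oxR. The lines did not overlap for 50.5% of all tested genes. The share among all untested genes was not computed, so these counts only describe the genes. Those named were picked after their values were seen. LAIR1, an inhibitory receptor for collagen known from leukocytes, had 24, 10 and 8 counts in HCT116oxR and 0 in each HCT116 library, at least 4.46-fold higher against a floor of 3 counts per library. Without HCT116oxR replicate 1, which held most of its counts, this bound was 2.92-fold. COL25A1, a transmembrane collagen of neurons, had 10, 22 and 16 counts in HCT116oxR and 4, 2 and 5 in HCT116. COL15A1, a collagen of basement membrane zones, had 8, 11 and 14 counts in HCT116oxR and 5, 5 and 4 in HCT116. CD36, a thrombospondin receptor, had 4, 4 and 11 counts in HCT116oxR and 3, 2 and 2 in HCT116. Of the 4 lower genes, the collagenase gene MMP13 had 3, 0 and 2 counts in HCT116oxR and 6, 8 and 7 in HCT116, and the stromelysin gene MMP10 had 0 in each HCT116oxR library and 4, 3 and 2 in HCT116. SRGN, a proteoglycan of secretory granules, had 0, 1 and 0 counts in HCT116oxR and 1, 2 and 3 in HCT116. The endothelial marker PECAM1 had 0 in each HCT116oxR library and 1, 5 and 2 in HCT116. KDR, also an endothelial marker, was among the 11 higher genes. It had 18, 8 and 8 counts in HCT116oxR and 1, 3 and 4 in HCT116. Of the endothelial markers with a test, VWF (log2 fold change 0.738 ± 0.337) and EGFL7 (0.14 ± 0.096) did not pass. PTPRC, which marks leukocytes, had 0 counts in all libraries beside the LAIR1 counts. The leukocyte-listed genes CD68 (log2 fold change -1.08 ± 0.17) and ITGAM (-0.99 ± 0.37) were lower in HCT116oxR. CSF1R, also on the leukocyte list, was among the 11 higher genes without a test. It had 5, 9 and 5 counts in HCT116oxR and 4 in each HCT116 library.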
